A study of Mus musculus with 6 samples.

Results

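The 8 messenger RNAs described here, Map2, Camk2a, Arc, Ddn, Shank1, Dlg4, Nrgn and Eef2k, are transcripts known to be carried into the dendrites of neurons. They were chosen by name from 32531 gene entries, and all 8 had counts high enough to be tested among the 17197 genes that passed a filter on low counts. Each was compared between RNA on affinity-purified polysomes (IP) and input RNA, with the question of whether transcripts that leave the cell body are under-represented on the purified polysomes.

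The libraries came from the midbrain of adult mice of 1 transgenic line, Lhx5-TRAP DT154, in which Rpl10a, a ribosomal protein, is joined to EGFP and tags the ribosomes of cells that use the regulatory sequences of Lhx5. The 3 IP libraries held RNA pulled down with anti-EGFP antibodies (translating ribosome affinity purification, TRAP), and the 3 reference libraries are titled input, although another of their labels reads unbound. All mice carried the transgene and were untreated controls, and the labels give no exact age, no sex and no statement that replicates were separate animals. The p-values therefore measure the spread between these libraries, which may be technical.

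Most neuronal messenger RNAs stay in the cell body, but some are packed into granules with RNA-binding proteins, moved along microtubules by kinesin motors and translated near synapses. Signals in the 3′ untranslated region (3′ UTR) direct much of this traffic, and local translation of such RNAs is part of synaptic plasticity. Most of the work on these transcripts was done in hippocampal and cortical neurons, where several of them are abundant.

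Library totals ran from 38058239 to 45841499 gene counts, so that 3 counts correspond to 0.0688 to 0.0741 CPM (counts scaled to a common library size, with TMM factors between libraries). The summed level of 25 pan-neuronal genes was 39470 to 45620 CPM in IP and 17540 to 23160 CPM in input, and that of 10 oligodendrocyte genes was 318.3 to 461.2 CPM in IP and 4039 to 4807 CPM in input. Of the midbrain markers, Slc17a6, the vesicular glutamate transporter 2 gene, had 377.4 to 643.3 CPM in IP and 129.8 to 263.3 CPM in input, while Pitx3, a dopamine neuron factor named after its values were seen, had 1 to 25 counts a library and was below the filter. The other 4 dopamine neuron genes of the list were lower in IP, namely Th (-2.05, SE 0.32), Slc6a3 (-3.05, SE 0.82), Slc18a2 (-1.74, SE 0.46) and Nr4a2 (-0.89, SE 0.21); Th and Nr4a2 were also named after their values were seen. Some libraries stood apart in marker genes of the midbrain or of other regions. Input replicate 3 had 1947 CPM summed over 12 striatal genes against 584.9 and 375.7 CPM in input replicates 1 and 2. It was also the lowest in midbrain genes, with 209.6 CPM summed over the list against 542.0 and 474.7 CPM. IP replicate 2 had 1030 CPM over 6 Purkinje cell genes against 143.9 and 104.2 CPM in IP replicates 1 and 3. In midbrain genes, IP replicate 3 was the lowest of its group, at 509.3 CPM against 801.2 and 785.0 CPM. Results are given with and without these libraries where the call differs.

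Of the 8 messenger RNAs, 6 were lower in IP, 1 was higher and 1 was not called in either direction (edgeR's quasi-likelihood test, adjusted p under 0.05 by Benjamini-Hochberg over all tested genes). Of all tested genes, 27.9% were called lower and 26.0% higher (4794 and 4467 genes, against 5567 and 3429 with upper-quartile scaling). When pan-neuronal genes set the scale between libraries, all 8 were lower, as were 59.5% of all tested genes, whose median was then -0.82. The median log2 fold change of the 8 was -1.02, against -0.01 over all tested genes, and the single values ran from -3.15 for Ddn to 0.48 for Dlg4. A fall shown to exceed 2-fold was found for 3 of them, Ddn, Nrgn and Camk2a, against 12.9% of all tested genes. The counts of 6 lower and 1 higher were the same without IP replicate 2 and input replicate 3 together, and without IP replicate 3 alone. They fell to 5 lower and 1 higher when IP replicate 2 was the only library dropped. Dropping just IP replicate 1 gave 5 and 1 as well, as did dropping just input replicate 2. Eef2k was the member that lost its call each time. A different mix of cells, less RNA per cell and a smaller share of an RNA on the tagged ribosomes cannot be told apart here. A lower level in IP can be any of these.

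The 3′ UTRs of the 8 transcripts were read from the reference transcripts, because that is where localisation and translation signals lie. Their length was 863 bases in Nrgn, 1500 in Ddn, 1668 in Arc, 2827 in Dlg4, 3235 in Shank1, 3372 in Camk2a, 3576 in Map2 and 4059 in Eef2k. The median over tested protein-coding genes was 1106 bases, and 7 of the 8 were longer than that. The cytoplasmic polyadenylation element, the site bound by CPEB proteins that control translation in dendrites, was searched as TTTTAT or TTTTAAT on the transcript strand. It occurred in 5 of the 8, with 5 matches each in Map2 and Dlg4, 3 in Eef2k and 1 each in Camk2a and Nrgn, and it was not found in these annotated 3′ UTRs of Arc, Ddn and Shank1. At least 1 match occurred in 60.9% of tested protein-coding genes with a 3′ UTR, so the share among the 8 is near that of all genes. The match nearest to the end of the 3′ UTR is shown for 4 genes that differ in direction, with the element in capitals. It lies 1169 bases before that end in Map2, 65 in Nrgn, 1392 in Eef2k and 18 in Dlg4. Each line gives 30 bases of the transcript strand (GENCODE M21 on GRCm38, the assembly also called mm10).
Map2 (chr1:66441397-66441426, plus strand): acaagaaggaatTTTTATaggagacagaca
Nrgn (chr9:37544545-37544574, minus strand): ggctggaaggtTTTTAATctctgcgtgtgc
Eef2k (chr7:120906041-120906070, plus strand): ggtcactgggagTTTTATgccagattgggc
Dlg4 (chr11:70047487-70047516, plus strand): attattactgcTTTTAATtaaaaaaaatta

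The first 3 of these genes were lower in IP and Dlg4 was higher (lower when pan-neuronal genes set the scale). Arc and Ddn, without the element, were lower as well. Across all tested protein-coding genes, the median log2 fold change was -0.05 for the 8890 with the element and 0.27 for the 5706 without it. With genes ordered by 3′ UTR length and divided into 4 equal bins, it was 0.21 in the bin with the shortest 3′ UTRs and -0.10 in the bin with the longest. Longer gene models went the same way, with a median of 0.43 in the bin with the least exonic sequence and -0.22 in the bin with the most. These are descriptions over genes, in which length and motif count move together. Nrgn, with the shortest 3′ UTR of the 8 and 1453 bases of exonic sequence, was among the most reduced. Of the members with the most exonic sequence, Map2 (16449 bases) was lower, Dlg4 (13251) was higher and Shank1 (10514) was not called. The part of length in the members' changes was not tested.

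Map2 encodes the microtubule-associated protein that marks dendrites. It lies on chromosome 1 from 66175273 to 66442583 on the plus strand. It had 507.5, 453.2 and 415.0 CPM in IP replicates 1, 2 and 3, and 768.3, 841.2 and 870.9 CPM in the input replicates. All 3 IP libraries were below all 3 input libraries. Map2 was lower by a log2 fold change of -0.85 (SE 0.11; edgeR adjusted p 0.000464). The fall was not shown to exceed 2-fold.

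Camk2a encodes the alpha subunit of calcium/calmodulin-dependent protein kinase II, a kinase abundant at synapses of forebrain excitatory neurons. It lies on chromosome 18 from 60925618 to 60988152. Camk2a had 200.0, 287.9 and 168.0 CPM in IP and 488.9, 723.9 and 696.9 CPM in input. The groups did not overlap, and IP replicate 2 was the highest of the IP libraries. Camk2a was lower by a log2 fold change of -1.54 (SE 0.22; edgeR adjusted p 0.000715). The test against 2-fold gave an adjusted p of 0.034. That value was 0.0993 without IP replicate 1, 0.108 without IP replicate 3, 0.111 without input replicate 2 and 0.0965 without input replicate 3, so this call rests on those libraries, while the fall itself stayed called when each of the 6 libraries was left out in turn.

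Nrgn encodes neurogranin, a small postsynaptic protein that binds calmodulin. It lies on chromosome 9 from 37544492 to 37552904 on the minus strand. Nrgn had 47.25, 53.24 and 42.48 CPM in IP and 135.1, 180.4 and 166.6 CPM in input. The IP libraries were close together and far below the lowest input library. This is a log2 fold change of -1.75 (SE 0.15), a level 3.37-fold lower in IP. The edgeR adjusted p was 5.53e-05, and 0.00154 for a change over 2-fold. The first of these was the smallest among the 8.

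Eef2k encodes the calmodulin-dependent kinase that phosphorylates elongation factor 2 and so slows elongation. It lies on chromosome 7 from 120842831 to 120907450 and had the lowest level per kilobase of the 8. Eef2k had 9.87, 10.82 and 13.83 CPM in IP and 16.49, 21.27 and 15.21 CPM in input, from 413 to 928 counts a library. The highest IP library lay just below the lowest input library. Eef2k was lower by a log2 fold change of -0.62 (SE 0.19; edgeR adjusted p 0.0248). It stood at -0.51 (edgeR adjusted p 0.0873) without IP replicate 1, -0.61 and 0.0598 without IP replicate 2, and -0.46 and 0.107 without input replicate 2, so the call was lost in each of these fits.

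Arc is an immediate early gene of synaptic activity whose RNA moves to active synapses. It lies on chromosome 15 from 74669083 to 74672570. Arc had 15.72, 15.63 and 12.67 CPM in IP and 26.49, 33.01 and 40.6 CPM in input. All IP libraries were below all input libraries. Arc was lower by a log2 fold change of -1.19 (SE 0.18; edgeR adjusted p 0.000932), and the test against 2-fold gave an adjusted p of 0.254.

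Ddn encodes dendrin, a protein of dendrites and the postsynaptic region. It lies on chromosome 15 from 98803777 to 98809490. Ddn had 11.71, 16.29 and 4.642 CPM in IP and 69.35, 95.03 and 124.8 CPM in input, from 199 to 5056 counts. The groups were far apart, and within IP Ddn varied more, relative to its mean, than the other 7. At -3.15 (SE 0.42) its log2 fold change was the largest among the 8, a level 8.86-fold lower in IP. The edgeR adjusted p was 0.000496, and 0.00307 for a change over 2-fold. With the replicate number as a block, the test against 2-fold gave an adjusted p of 0.0563 and the fall itself stayed called (0.014).

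Shank1 and Dlg4 encode scaffolds of the postsynaptic density. Shank1 lies on chromosome 7 from 44310253 to 44360572, and 3.22% of its exonic bases overlap a gene on the other strand. Such overlap was 4.68% for Ddn, 1.36% for Eef2k, 0.754% for Map2 and 0 for the other 4, and without a stated strand setting the reads of both strands cannot be told apart there. Shank1 had 372.3, 403.0 and 524.4 CPM in IP and 391.2, 439.1 and 330.9 CPM in input. The groups overlapped, and IP was the higher in only 1 of the 3 same-numbered pairs. Shank1 had a log2 fold change of 0.16 (SE 0.16; edgeR adjusted p 0.415), which turned to -0.65 when pan-neuronal genes set the scale.

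Dlg4, the gene of PSD-95, lies on chromosome 11 from 70016942 to 70047522. Dlg4 had 368.8, 368.7 and 411.6 CPM in IP and 252.4, 263.9 and 309.0 CPM in input. All 3 IP libraries were above all 3 input libraries. Dlg4 had a log2 fold change of 0.48 (SE 0.12; edgeR adjusted p 0.00796), a level 1.39-fold higher in IP that turned to -0.34 when pan-neuronal genes set the scale.

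**Figure D1:**
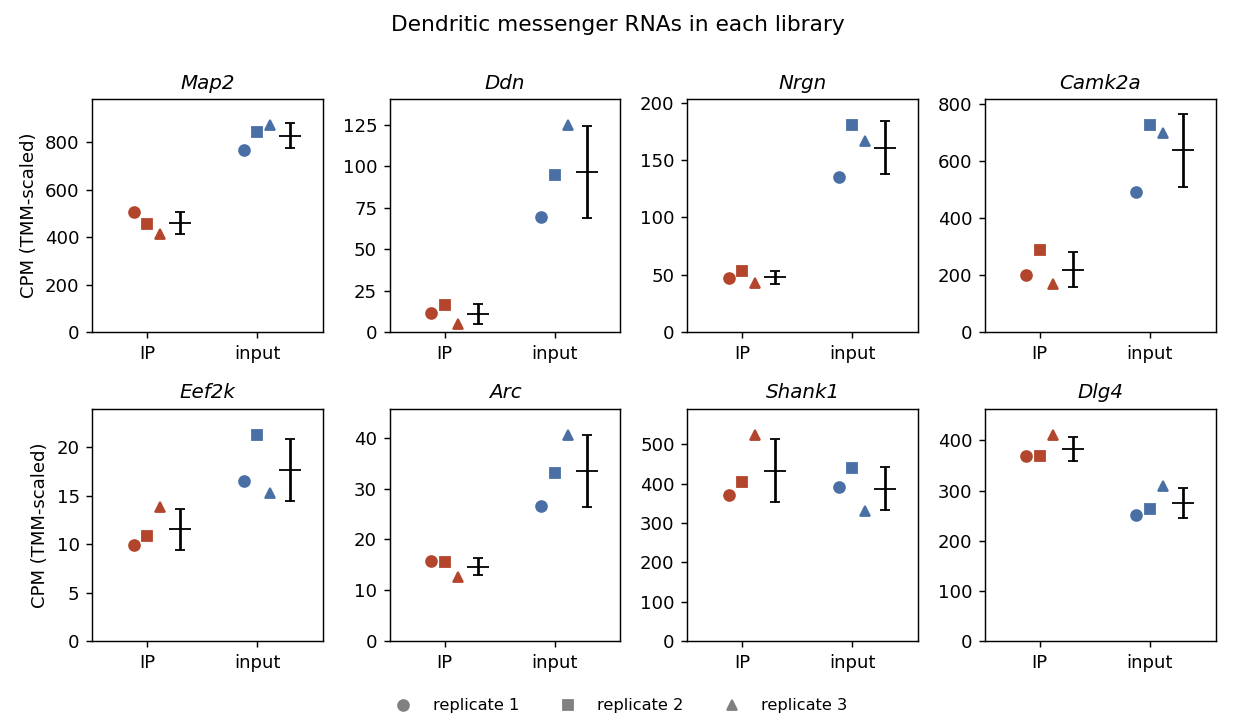
TMM-scaled CPM (vertical axis, from 0) of the 8 messenger RNAs in each IP and input library, with marker shape for the replicate and black bars for the mean ± SD (n = 3 each). The 3 IP points lie below the 3 input points for Map2, Ddn, Nrgn, Camk2a, Eef2k and Arc, above them for Dlg4 (with TMM scaling over all genes; its direction turns when pan-neuronal genes set the scale), and among them for Shank1.

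Non-overlap alone is common here, since 32.8% of tested genes had all IP libraries below all input libraries and 30.7% had them all above. It was seen in 6 and 1 of the 8. Per kilobase of exonic sequence, Nrgn was the most abundant of the 8 in input at 110.6 ± 16.0 CPM per kb, followed by Camk2a at 85.3 ± 17.2, Map2 at 50.3 ± 3.21, Shank1 at 36.8 ± 5.16, Ddn at 25.5 ± 7.34, Dlg4 at 20.8 ± 2.26, Arc at 10.9 ± 2.31 and Eef2k at 2.38 ± 0.432 (SD, n = 3). In IP the order of the level per kb was different, with Shank1 first at 41.2 ± 7.65, then Nrgn at 32.8 ± 3.71, Camk2a at 29.3 ± 8.31, Dlg4 at 28.9 ± 1.87 and Map2 at 27.9 ± 2.83. Arc at 4.80 ± 0.569, Ddn at 2.88 ± 1.55 and Eef2k at 1.55 ± 0.279 came last. Neighbours whose mean ± SD overlapped were Nrgn and Camk2a, Shank1 and Ddn, and Ddn and Dlg4 in input. In IP the same held for every pair of neighbours from Shank1 to Map2 and from Arc to Eef2k. The length is that of all annotated exons merged, which overstates the transcript of genes with many isoforms such as Dlg4 and Map2.

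The input also contains glial RNA, and the pan-neuronal genes rose on balance. Of 25 tested pan-neuronal genes 21 were called higher in IP and 0 lower, with a median log2 fold change of 0.86. Snap25, a SNARE protein gene, stood at 1.10 (SE 0.17), Vsnl1, a calcium sensor gene, at 1.52 (SE 0.15), and Sncb, the gene of beta-synuclein, at 1.81 (SE 0.14). When scaling factors were computed from these 25 genes alone, 3.56% of all tested genes were called higher and none of the 8 dendritic RNAs was among them. Under this scaling Dlg4 stood at -0.34 (SE 0.13, edgeR adjusted p 0.0419) and Shank1 at -0.65 (SE 0.14, edgeR adjusted p 0.00319), so the direction of these 2 scaffold genes depends on whether they are set against all RNA or against pan-neuronal RNA. The other 6 stood between -3.93 for Ddn and -1.43 for Eef2k, and 6 of the 8 were shown to be over 2-fold lower, against 26.7% of all tested genes.

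**Figure D2:**
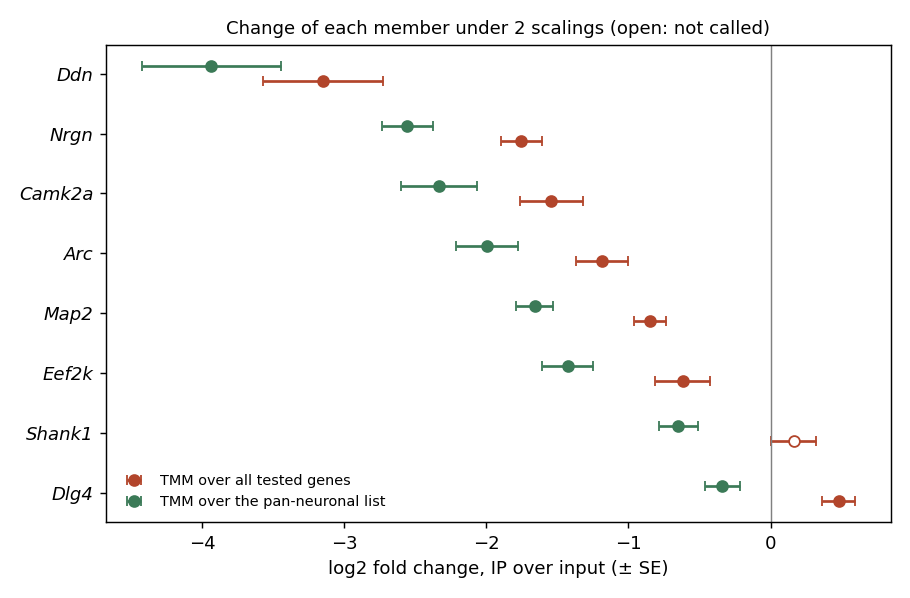
Log2 fold change of IP over input with its SE for each messenger RNA, with TMM factors from all tested genes (red) and from the 25 pan-neuronal genes (green); open points were not called. The horizontal axis is the log2 fold change; under the second scaling every value lies further left, which takes Dlg4 to -0.34 and Shank1 to -0.65 and leaves the order of the 8 the same.

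Ratios within a library need no scaling between libraries. Each of 7 members was set against a related gene (Ddn was given none). For 1 count of Camk2b, the beta subunit gene whose RNA is known to stay largely in the cell body, there were 0.504, 0.697 and 0.420 counts of Camk2a in IP, against 1.10, 1.53 and 1.28 in input. The mean difference of the log2 ratio, IP minus input, was -1.29. For Nrgn per count of Gap43, the gene of a growth-cone protein that shares its calmodulin-binding motif, the values were 0.0809, 0.0993 and 0.0694 in IP and 0.373, 0.525 and 0.403 in input, a difference of -2.38. Map2 per count of Mapt, the axonal tau gene, was 2.32, 2.10 and 1.73 in IP and 3.46, 4.02 and 3.33 in input, a difference of -0.82.

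Eef2k per count of Eef2, its substrate's gene, differed by -0.92, with 0.0176 to 0.0222 in IP and 0.0344 to 0.0456 in input. Arc per count of Egr1, another immediate early gene, differed by -0.59, with 0.0724 to 0.0962 in IP and 0.123 to 0.135 in input. These 5 ratios were lower in IP than in input in all 3 same-numbered pairs. Dlg4 per count of Dlg2, the gene of PSD-93, went the other way by 0.83, with 0.955, 0.964 and 0.948 in IP and 0.564, 0.549 and 0.505 in input. Shank1 per count of Shank2 overlapped between groups, at 7.81 to 14.6 in IP and 6.30 to 11.7 in input. For the 6 ratios that did not overlap, the two-sided exact permutation p was 0.1, the smallest that 3 against 3 can give, and 0.117 adjusted over the 7 pairs; for Shank1 it was 0.4. None can pass 0.05 in this design. The counterparts Camk2b, Mapt, Shank2, Dlg2, Eef2 and Egr1 were themselves not called, with log2 fold changes from -0.58 for Egr1 to 0.31 for Eef2. Some lay just over the threshold, with edgeR adjusted p of 0.0538 for Egr1, 0.0540 for Dlg2, 0.0581 for Camk2b and 0.0670 for Eef2. Dlg2 (-0.36) and Eef2 moved opposite to their members, which widens those ratio differences. Camk2b (-0.28) and Egr1 moved the same way as theirs. Gap43 rose by 0.63 (SE 0.11, edgeR adjusted p 0.00184).

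**Figure D3:**
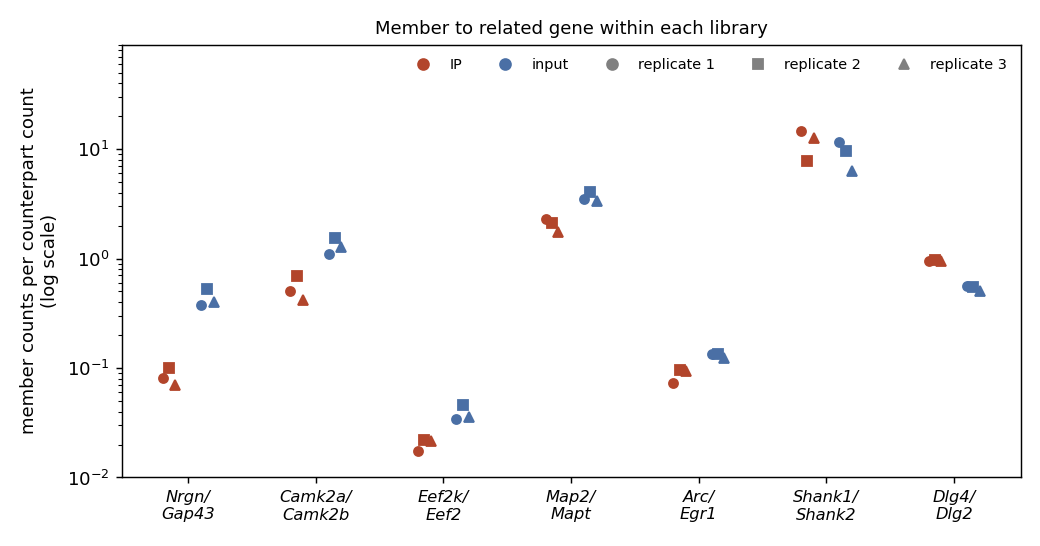
Counts of each messenger RNA per count of its related gene in every library (vertical axis, log scale), IP in red left of input in blue, with marker shape for the replicate. Nrgn, Camk2a, Eef2k, Map2 and Arc lie lower in IP than in input, Dlg4 lies higher, and Shank1 overlaps.

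Related genes of the same families gave mixed calls. Of 19 tested relatives, 3 were called higher, 3 lower and 13 neither, with a median log2 fold change of -0.04. The kinase subunit genes Camk2d and Camk2g, named after their values were seen, were not called (-0.07, SE 0.10, and 0.38, SE 0.19). Neither were Map1a (0.14, SE 0.12) and Map1b (-0.11, SE 0.09), which encode microtubule-associated proteins. Map4, a widely expressed member of that group, rose by 1.12 (SE 0.11). Npas4, an activity-regulated transcription factor gene, was lower by the largest amount (-1.34, SE 0.39). Named after their values were seen, the scaffold genes Shank3 (-0.85, SE 0.22) and Dlg1 (-0.93, SE 0.13) were also lower, and the immediate early gene Fos rose by 0.78 (SE 0.15), opposite to Arc. The number called lower was 7 with upper-quartile scaling and 5 without input replicate 1.

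A list of 25 further RNAs reported in dendrites did not move as one. Of 24 tested, 11 were called lower, 4 higher and 9 neither, with a median of -0.36. The number called lower was 7 without input replicate 1 or without input replicate 3. Among those lower were Gria2, an AMPA receptor subunit gene (-0.76, SE 0.23), the actin gene Actb (-0.30, SE 0.10) and Cnksr2, a postsynaptic scaffold gene and the largest fall (-1.23, SE 0.13). Those higher were Calm3, a calmodulin gene (0.91, SE 0.13), Limk1, a kinase of actin turnover (1.49, SE 0.29), and, named after their values were seen, the growth factor gene Bdnf (1.07, SE 0.33) and Rheb, an activator of mTOR (1.12, SE 0.11). The short dendritic noncoding RNA Bc1, also named afterwards, had 0 counts in the 3 IP libraries and 3 counts in 1 input library, and was not tested.

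Genes of the transport and translation machinery were also divided. Of 23 tested genes for RNA-granule proteins and their motors, 12 were called lower and 4 higher, with a median of -0.30. Kif5a and Kif5c, kinesin heavy chains that carry granules, stood at -0.82 (SE 0.14) and -0.27 (SE 0.09). The 2 partners of the fragile X protein went opposite ways, with Cyfip1 at -1.56 (SE 0.12) and Cyfip2 at 0.51 (SE 0.10), and the fragile X relative Fxr2 rose by 0.60 (SE 0.18). With upper-quartile scaling, 2 were called higher. Of 12 tested genes listed for the control of translation at synapses, 3 rose, 2 were lower and 7 were not called, with a median of 0.13. The calmodulin gene Calm2 rose by 0.85 (SE 0.11). The poly(A)-binding protein gene Pabpc1 stood at -1.01 (SE 0.09) and Eif4ebp1, a cap-binding repressor gene of low abundance, at -1.89 (SE 0.53). Without input replicate 1 or without input replicate 2, 1 of the 12 was lower. When pan-neuronal genes set the scale and 59.5% of all tested genes were lower, 14 of the 19 relatives, 18 of the 24 further dendritic RNAs, 22 of the 23 transport genes and 9 of the 12 translation genes were called lower, and 1, 2, 0 and 0 of them higher.

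**Figure D4:**
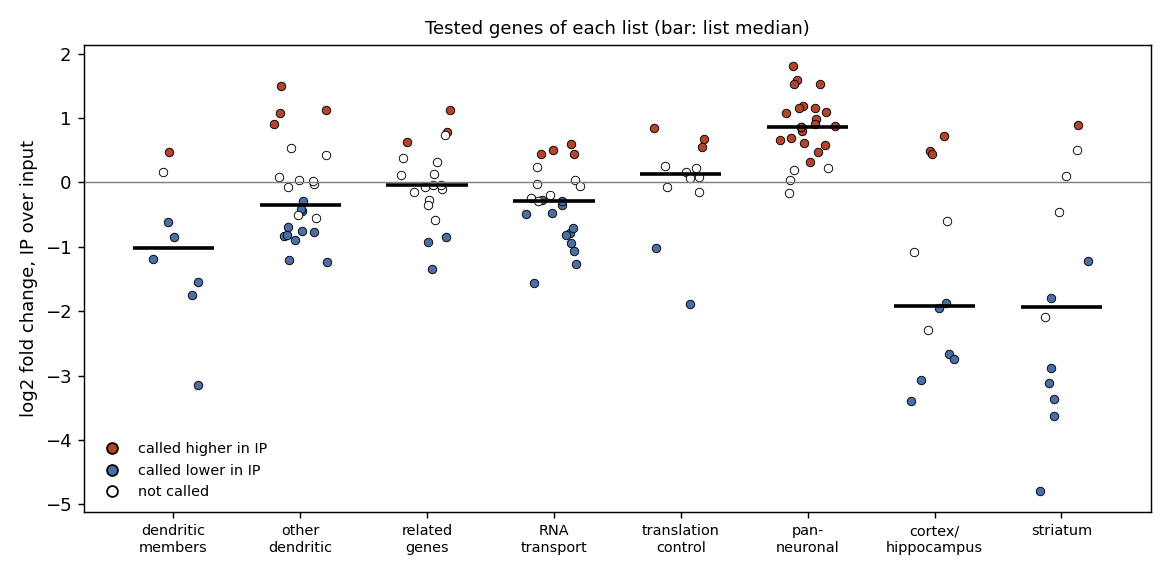
Log2 fold change of IP over input (vertical axis) for the tested genes of 8 lists, red where called higher in IP, blue where called lower and white where not called, with a black bar at the list median. The dendritic RNAs have a median of -1.02, between the further dendritic RNAs at -0.36 and the 2 forebrain marker lists near -1.9, while the pan-neuronal list lies at 0.86. The striatal median includes input replicate 3, which stood apart in striatal genes.

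Most of the forebrain neuron markers that were called were lower in IP, as were the 6 reduced RNAs. Of 12 tested genes of cortical and hippocampal excitatory neurons, 6 were called lower and 3 higher, with a median of -1.91, and their summed level was 320.0 to 355.6 CPM in IP against 458.3 to 725.5 CPM in input. Slc17a7, the vesicular glutamate transporter 1 gene of those neurons, had 11.92, 11.79 and 0.583 CPM in IP and 86.97, 122.0 and 46.53 CPM in input. It was called lower, by a log2 fold change of -3.40 (SE 0.89). No gene of this list was at 0 in all libraries of a group. All 10 oligodendrocyte genes, 9 of 10 astrocyte genes and 9 of 10 microglial genes were lower, with medians of -3.50, -3.24 and -3.70. Their sums for astrocytes were 754.1 to 780.9 CPM in IP and 1535 to 2105 CPM in input, of which Aldoc, the astrocyte gene that was not called, held 578.9 to 631.2 CPM in IP and 414.2 to 628.6 CPM in input. For microglia the sums were 13.8 to 26.2 CPM in IP and 71.5 to 130.8 CPM in input. Of 12 striatal genes 7 were called lower and 1 higher, with a median of -1.94 and summed levels of 443.5 to 599.4 CPM in IP against 375.7 to 1947 CPM in input. The 1947 CPM came from input replicate 3. Input replicates 1 and 2, at 584.9 and 375.7 CPM, were not above the IP range. The striatal calls and median include input replicate 3, and values without it are not given. Among the input libraries, Camk2a, Nrgn and Eef2k were highest in replicate 2, which had the most cortical and hippocampal RNA. Ddn, Arc and Map2 were highest in replicate 3, which had the most striatal RNA. The members that were not reduced had the same peaks. Shank1 was highest in input replicate 2 (439.1 CPM) and Dlg4 in input replicate 3 (309.0 CPM), so these peaks do not set the reduced RNAs apart. Among the IP libraries, replicate 3 was lowest for Camk2a, Nrgn, Ddn, Arc and Map2 but highest for Eef2k, Shank1 and Dlg4. The summed cortical and hippocampal level was 320.0 CPM in IP replicate 3 and 323.0 CPM in IP replicate 1. Members of that list differed in IP replicate 3, which was the lowest of the IP libraries for Slc17a7 and the highest for Rasgrf2 and Lamp5, both called higher in IP. Of 13 tested midbrain genes 4 were lower and 3 higher (median -0.51), and of 6 Purkinje cell genes 1 was higher (median 1.93). The part of any of these markers in the members' levels was not tested. Without input replicate 3, Ddn stood at -2.93 and Arc at -1.04, and both stayed called.

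Many genes shared the pattern of most members over the 6 libraries. Among 10080 genes (mean log2 CPM 3 or more) the profiles most like a member's were taken by Pearson's r of log2 CPM over the 6 libraries. This is a description, since the difference between IP and input shapes every profile. For 6 of the members the closest genes, at r of 0.9822 for Eef2k to 0.9995 for Map2, were Nkain3 for Map2, Bcl11a for Camk2a, Jak2 for Arc, Jakmip1 for Dlg4, Fubp3 for Nrgn and Asf1a for Eef2k. An r over 0.95 was common for Nrgn, with 978 genes, Map2 with 882, Dlg4 with 662, Arc with 591, Ddn with 492 and Camk2a with 418. It was rare for Eef2k, with 24 genes, and for Shank1, with 6. The transcription factor gene Bcl11a stood at -0.85 (SE 0.16) on the log2 scale, a smaller change than that of Camk2a at -1.54.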

How the data were processed

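Each library was deposited as a table of raw read counts, 1 line for each gene symbol, and the authors applied no normalization to them. The submitters' processing notes name STAR 2.0.0e, HTSeq and the mm10 build; the sources used here do not give the annotation, strand setting or counting mode. Summary lines and an entry for unknown genes (at most 1.09e-06% of a library's reads) stayed out of totals and tests. Ambiguous reads were 1.59% to 1.68% in IP and 8.03% to 10.9% in input, reads that did not map uniquely 43.8% to 44.5% in IP and 31.8% to 33.0% in input, and reads outside annotated features 7.74% to 7.86% in IP and 12.9% to 14.9% in input. Their part in the results was not tested.

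Groups and replicate numbers came from the sample titles. After filterByExpr (minimum count 10, minimum total 15) and TMM scaling, IP was tested against input in edgeR 4.0.16 (R 4.3.3) with the robust quasi-likelihood test, two-sided, without covariates. Benjamini-Hochberg adjustment ran over 17197 genes, with a threshold of 0.05. Changes over 2-fold were tested with glmTreat. The SE is the log2 fold change divided by the square root of F. The procedure was tested on simulated data. Alternatives used DESeq2 1.42.0, limma 3.58.1 (voom), other scalings and filters, a replicate block and left-out libraries. Positions and 3′ UTRs came from GENCODE M21, with 23155 entries matched by symbol and 772 by an older one. The 3′ UTR was the longest one after the stop codon of the APPRIS principal transcript.

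The members, lists and tests were chosen with earlier results of these data known. Named genes were the members, their counterparts, the 3 most abundant genes and the largest called rise and fall of each list, and the genes closest in pattern; some of them are not reported here. Same-numbered libraries share a sequencing lane in their labels, and pairwise correlations of their deviations from the group mean were 0.155, 0.074 and 0.051. Replicates of a group correlated at 0.971 to 0.985 in log2 CPM, and their counts differed well beyond sampling noise (chi-square per degree of freedom 25.6 to 79.3). That value was 77.8 and 79.3 for pairs with IP replicate 3, and 30.1 between IP replicates 1 and 2. It was 72.8 and 64.3 for pairs with input replicate 3, and 25.6 between input replicates 1 and 2. The CPM of 3 counts covers counting error only.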

Additional observations from a re-analysis of the deposited data

How the results depend on the processing

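Over 18 alternatives, the falls of Map2, Camk2a, Arc, Ddn and Nrgn kept their direction and stayed called, with Nrgn between -2.56 and -1.66 and an adjusted p of at most 0.000873. The scaling from pan-neuronal genes changed most. It reversed Dlg4 (-0.34) and Shank1 (-0.65), left 0 members higher, put 6 over 2-fold lower, and gave 612 genes higher and 10228 lower. Its counts lower and higher were 14 and 1 for family relatives, 18 and 2 for further dendritic RNAs, 22 and 0 for transport genes, 9 and 0 for translation genes and 6 and 4 for pan-neuronal genes. This follows from its construction, which centres the pan-neuronal list. Upper-quartile scaling gave 3429 genes higher and 5567 lower, against 4467 and 4794.

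Eef2k lost its call at a threshold of 0.01 (-0.62). The number of family relatives lower was 6 with RLE scaling, DESeq2, a minimum of 1 CPM or protein-coding genes alone, and 7 with upper-quartile scaling or library totals. Transport genes higher numbered 2 with upper-quartile scaling or library totals. Further dendritic RNAs lower numbered 5 at 0.01, and translation genes lower 1 at 0.01 or with a minimum of 1 CPM. Leaving out libraries gave 5 to 6 members lower, 2 to 3 of them over 2-fold, 2 to 5 family relatives lower, 7 to 10 further dendritic RNAs lower and 1 to 2 translation genes lower. The cause of these shifts was not tested.

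With the replicate block, 6 members were lower, 1 higher and 2 over 2-fold lower, and it changed no other call of a member. Over the 3 pairs, the ratio tests with the block gave p = 0.25 by exact permutation for 6 ratios, the smallest possible, and 0.5 for Shank1. The lowest count of a member in a library was 199, for Ddn; Eef2k, with the fewest counts in input, was the only member that lost a called fall under the alternatives run.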
